A study of Mus musculus and synthetic construct with 3 samples.

Results

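Macrophage hexagons without Gpnmb were examined in Seq-Scope data of the mouse suprarenal aorta. A hexagon is a spot with 12 μm sides in which the UMIs (unique molecules) of all barcodes were summed, so that it can hold parts of several cells. Members were selected on measured UMIs, and a hexagon counted as a macrophage hexagon when it had no Gpnmb UMI and 2 or more summed UMIs of Ctsb, Lyz2, C1qa, C1qb, C1qc, Ctss and Cd68, here called the rule genes. This held for 650 of the 11694 hexagons with 50 or more genes. Another 8440 hexagons had no UMI of any of these 8 genes and served as the reference, and 106 hexagons had 2 or more rule UMIs together with Gpnmb.

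The sections came from 3 AAA mice (A1, A2 and A3), infused with angiotensin II (AngII, given by the labels as 1000 ng/ml in the minipump) and with an abdominal aortic aneurysm, and from 3 control mice (C1, C2 and C3), infused with saline. All were male Apoe-/- mice on normal chow, aged 16 weeks in the labels, with pumps for 4 weeks, so the controls also lacked apolipoprotein E. The labels and the methods of the study do not state the same unit of the AngII dose or the same age, and the values given here are those of the labels. Only AngII-infused mice that developed an aneurysm were sectioned. One AAA and one control aorta were embedded together and cut at 10 μm, giving 10 AAA and 10 control sections on 1 array. The deposited matrix does not name sections, so each was placed, with its condition, by its position along the array against the outlines published with the study. Of all hexagons with 50 or more genes along the outlined stretch, 11694 lay inside the sections and 4 between them. The outlines were widened and shifted to the best overlap with the data, so few hexagons could fall between.

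Macrophages clear debris and lipid from the vessel wall and break them down in lysosomes, the compartment in which cathepsins such as Ctsb and Ctss work. Lyz2 encodes a lysozyme of myeloid cells, the C1q genes encode the chains of the first complement component, which macrophages secrete, and Cd68 encodes a lysosomal membrane protein of macrophages. In aneurysm, macrophages enter the media and adventitia, where they present antigen on MHC class II and release enzymes that cut elastin and collagen. Gpnmb encodes a membrane glycoprotein of macrophages loaded with lipid or debris. The rule asks for no Gpnmb UMI, which at this depth need not mean that the cells lack Gpnmb RNA.

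The rule genes are given here as a description, since they chose the hexagons. Ctsb was the most frequent, with 494 UMIs in 290 of the 650 hexagons, followed by Lyz2 with 365 UMIs in 269 hexagons. C1qc had 232 UMIs, C1qa 189 and C1qb 165, and 58.3% of the hexagons held a UMI of at least 1 of these 3 genes. Ctss had 134 UMIs, and Cd68 was the rarest with 53 UMIs in 46 hexagons. Ctsb or Lyz2 was found in 477 hexagons (73.4%) and both in 82 (12.6%), whereas 173 hexagons held neither and entered through C1q, Ctss or Cd68.

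Most members were near the limit of the rule. Exactly 2 rule UMIs were counted in 451 hexagons (69.4%), and 1970 further hexagons without Gpnmb fell just outside with 1 rule UMI. Different rule genes met in 429 hexagons (66.0%), while 221 rested on repeated UMIs of 1 gene. The composition was alike in the AAA mice, where Ctsb made up 28.8%, 29.7% and 32.1% of the rule UMIs in A1, A2 and A3 and Lyz2 22.9%, 24.8% and 18.9%. The rule asks for a least number of UMIs, and macrophage hexagons were deeper than the hexagons without the rule genes, with a median of 97 against 73 UMIs.

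RNA of the rule genes was also found off the tissue. In the stretches of array between sections the rule genes took 34.1 of every 10000 UMIs, against 40.1, 46.2 and 43.4 in all kept hexagons of A1, A2 and A3 and 18.5, 18.1 and 18.1 in those of C1, C2 and C3. In AAA mice the rule was met by 18 hexagons with 4 or more UMIs of the contractile genes Acta2, Tagln, Myl9 and Myh11 (5.92% of such hexagons, whose median was 102 UMIs) and by 611 of the 9923 others (6.16%, median 76 UMIs). The share in the deeper smooth muscle hexagons was thus close to that elsewhere. The rule genes took 33.9 of every 10000 UMIs in them, against 42.4 in the others. Gpnmb took 8.22 of every 10000 UMIs between sections and 5.89, 10.7 and 10.8 in all kept hexagons of A1, A2 and A3. In C1, C2 and C3 it took 2.71, 4.02 and 3.23. At such levels a hexagon of median depth can lack a Gpnmb UMI, or hold 1, through sampling or free RNA. The part of free RNA in the 650 hexagons, and of sampling in their lack of Gpnmb, was not tested.

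Genes of macrophages that the rule did not use stood higher in these hexagons. The summed level of 28 other macrophage genes, among them Csf1r, the receptor of the growth factor that maintains macrophages, and Adgre1, which encodes F4/80, was 53.8, 42.2 and 48.7 UMIs per 10000 in the macrophage hexagons of A1, A2 and A3, against 29.9, 33.2 and 35.4 in their hexagons without the rule genes. The 2 groups did not overlap, and the level between sections was 27.6. All 28 genes were detected in macrophage hexagons, but with 375 UMIs in all, so that none was frequent enough for a test of its own. Csf1r had 18, 4 and 2 UMIs there in A1, A2 and A3, and Adgre1 had 13, 4 and 1.

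**Figure D1:**
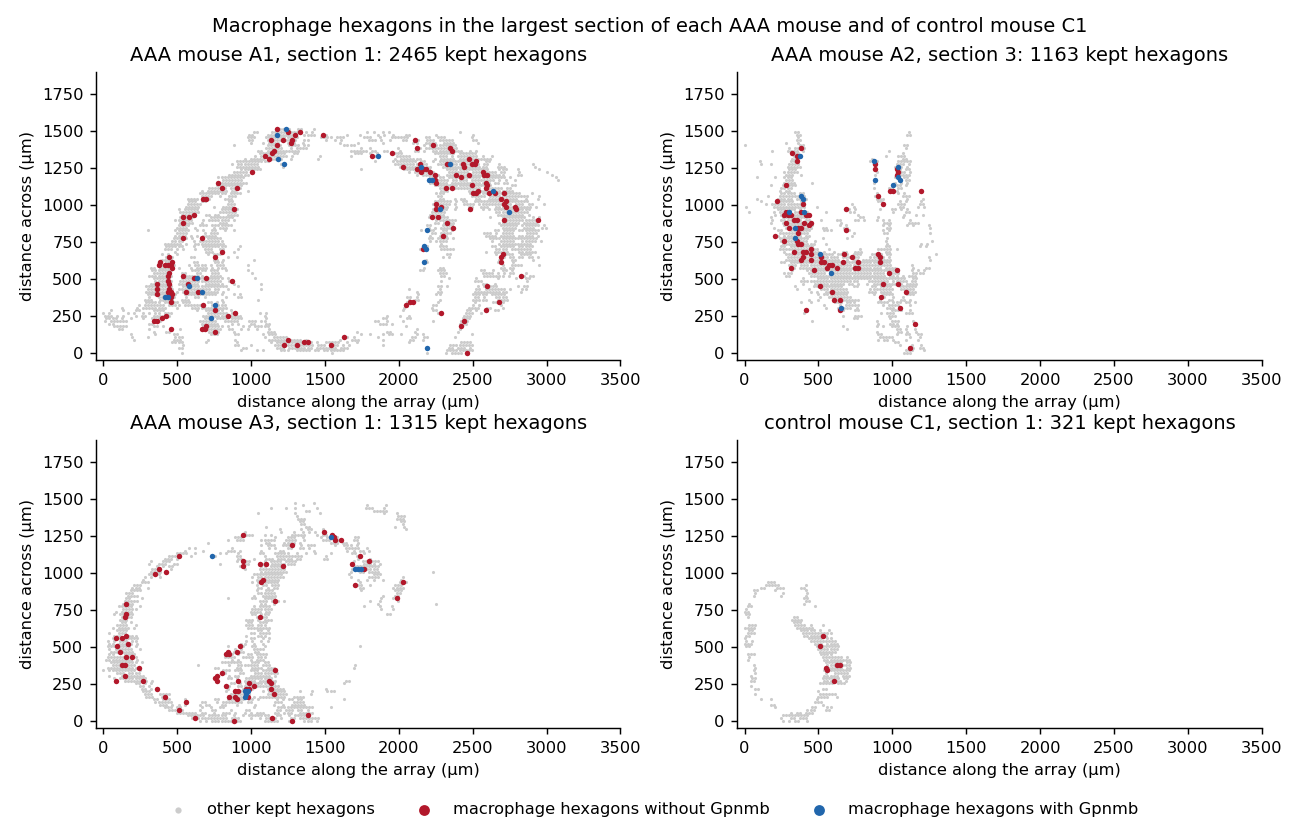
Positions of macrophage hexagons without Gpnmb (red), macrophage hexagons with Gpnmb (blue) and other kept hexagons (grey) in the section with the most kept hexagons of each AAA mouse and of control mouse C1, with distances in μm along and across the array. Most of the red points lie in the AAA sections, and section 1 of C1 holds 7 of them among 321 hexagons.

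The first comparison asked how common these hexagons were in aneurysm. They made up 6.21%, 6.98% and 5.43% of the kept hexagons in A1, A2 and A3 (of 5557, 1964 and 2706 hexagons), against 2.29%, 0.524% and 0.928% in C1, C2 and C3 (15 of 654, 2 of 382 and 4 of 431). Every AAA mouse was above every control mouse. The mean share was 6.21% ± 0.772 in AAA mice and 1.25% ± 0.927 in control mice (SD, n = 3 each), a difference of 4.96 percentage points (p = 0.1 in a two-sided exact permutation test over mice, below which a design of 3 and 3 cannot go). The exact 95% binomial intervals, which cover counting error only, ran from 4.61% to 8.19% in AAA mice and from 0.0635% to 3.75% in control mice. In bulk spots such as these, fewer macrophages and less macrophage RNA per cell cannot be told apart.

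The same order was seen when depth was held equal. Thinned to 50 UMIs, hexagons were expected to meet the rule in 2.74% ± 0.457 of cases in AAA mice and 0.496% ± 0.253 in control mice (SD, n = 3 each, exact permutation test, p = 0.1). Hexagons with 2 or more different rule genes made up 4.10% ± 0.819 in AAA mice and 0.839% ± 0.598 in control mice (SD, n = 3 each). With 3 or more rule UMIs the shares were 1.98%, 1.93% and 1.77% in A1, A2 and A3 and 0.306%, 0% and 0.232% in C1, C2 and C3. By a limit of 3 counts, 0 of 382 hexagons allows a share of up to 0.785%. Over sections, the share ran from 3.74% to 7.09% in the 10 AAA sections and from 0% to 2.44% in the 10 control sections, 3 of which had no macrophage hexagon. The level of the rule genes over all kept hexagons, given above, was also higher in every AAA mouse than in every control mouse, and its part in the difference of the shares was not tested beyond these settings.

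**Figure D2:**
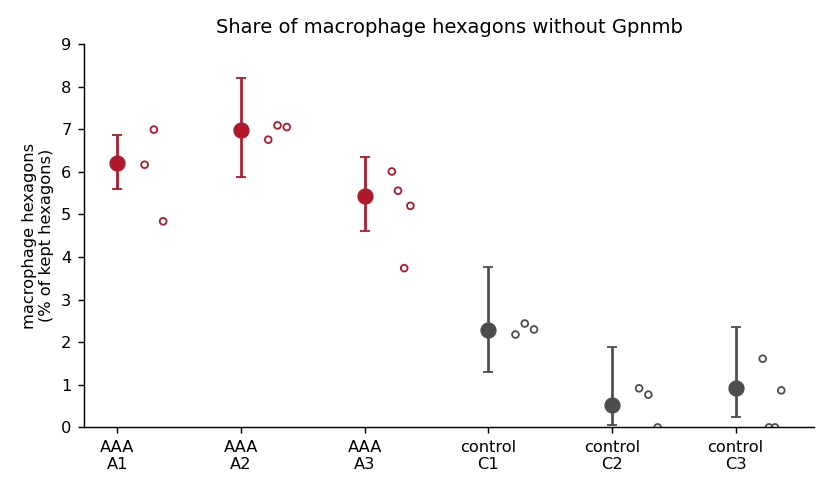
Share of kept hexagons, in percent, that were macrophage hexagons without Gpnmb, by mouse (filled points, with exact 95% binomial intervals) and by section (open points). AAA mice lie between 5.43% and 6.98%, above the control mice at 0.524% to 2.29%.

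The second comparison asked which genes outside the rule differed between macrophage hexagons and the hexagons without the rule genes of the same mice. UMIs were summed per mouse and group, the rule genes and Gpnmb were left out, and 331 genes were tested with edgeR with the mouse as a block. None of the 331 genes passed an adjusted p of 0.05 (0% higher, 0% lower), and 21 had an unadjusted p under 0.05. DESeq2 also called 0 genes, with 5 at an unadjusted p under 0.05. The macrophage hexagons of the controls held few UMIs of the tested genes (53 in C2 and 135 in C3) and received TMM scaling factors of 5.21 and 2.26, whereas the AAA sums were between 0.74 and 0.80. When library sizes alone were used for scaling, a setting planned as an alternative, edgeR called 8 genes higher and 8 lower (2.42% of the 331 genes each way). With the same scaling in the AAA mice alone it called 0 of the 331 genes (lowest adjusted p = 0.103, with 36 genes at an unadjusted p under 0.05). Those 16 calls were thus not made without the controls. The fit of the AAA mice alone also holds fewer sums, and the cause of the change was not tested. All values in UMIs per 10000 are levels relative to the UMIs outside the rule genes, without these factors.

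MHC class II genes had higher levels in the macrophage hexagons of the AAA mice. H2-Ab1, the beta chain of the class II molecule I-A, stood at 18.2, 12.7 and 13.2 UMIs per 10000 in the macrophage hexagons of A1, A2 and A3, against 8.09, 9.03 and 8.76 in the hexagons without the rule genes. The groups did not overlap (log2 fold change 0.81, SE 0.24, edgeR adjusted p = 0.165, and 0.00292 with library size scaling). Cd74, the invariant chain that guides class II molecules to the lysosome, was at 11.0, 14.7 and 10.1 in macrophage hexagons and at 6.68, 7.74 and 6.36 in the others (log2 fold change 0.67, SE 0.25, edgeR adjusted p = 0.235, and 0.042 with library size scaling). H2-Aa, the alpha chain, had a log2 fold change of 0.69 (SE 0.24, edgeR adjusted p = 0.165, and 0.042 with library size scaling). All 3 tested genes of the 9 on the class II list thus lay on 1 side without overlap in the AAA mice, where 7.85% of all tested genes were higher without overlap. The median log2 fold change of the list was 0.69, against -0.05 over all 331 genes.

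Lysosomal genes outside the rule also had higher levels. Psap, the precursor of the saposins that help to degrade sphingolipids, was at 41.1, 53.5 and 57.2 UMIs per 10000 in the macrophage hexagons of A1, A2 and A3, against 26.601, 26.9 and 31.1 in the hexagons without the rule genes (log2 fold change 0.65, SE 0.23, edgeR adjusted p = 0.165, and 1.09e-05 with library size scaling). Neither Psap nor Ctsd overlapped between the groups in the AAA mice. Ctsd, the aspartic protease cathepsin D, was at 21.5, 29.5 and 35.6 against 14.2, 16.3 and 18.5 in the hexagons without the rule genes. Its log2 fold change was 0.69 (SE 0.23, edgeR adjusted p = 0.165, and 0.000998 with library size scaling). Ctsz, a cathepsin with carboxypeptidase activity, was at 7.03, 6.69 and 11.6 in macrophage hexagons and at 4.19, 5.07 and 4.51 in the others (edgeR adjusted p = 0.165, and 0.0392 with library size scaling). Lamp1, a main protein of the lysosomal membrane, was at 17.4, 16.1 and 17.8 in macrophage hexagons and at 11.2, 13.1 and 13.3 in the others, and did not pass here or with library size scaling (edgeR adjusted p = 0.904 and 0.337). Of the 29 lysosomal genes, 9 were tested, 8 of them were higher in all 3 AAA mice, where 13.9% of all tested genes were, and 6 without overlap. The summed level of the list was 252 ± 20.7 in macrophage hexagons and 179 ± 7.47 in hexagons without the rule genes (SD, n = 3 AAA mice each), with 152 between sections. Cst3 contributed 58.6 ± 15.4 of the level in macrophage hexagons (SD, n = 3 AAA mice). Its own difference was small, with a log2 fold change of 0.18 with library size scaling (SE 0.12, edgeR adjusted p = 0.66). In the AAA mice alone, over the same tested genes, it was 0.23 (SE 0.12, edgeR adjusted p = 0.513). The study lists Cst3 among the markers of its collagen fibroblast cluster.

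The reference was then narrowed to hexagons without the rule genes that lay within 45 μm of a macrophage hexagon, a setting chosen after seeing the data. In this local comparison 107 genes were tested and 3 passed, namely Psap, Ctsd and H2-Ab1. Their log2 fold changes were 0.64, 0.65 and 0.83, each with an edgeR adjusted p of 0.00256. At 75 or more genes per hexagon Psap passed alone of 109 genes (log2 fold change 0.70, edgeR adjusted p = 0.00358). In the AAA mice alone 1579 genes were tested and 0 passed, with Psap nearest to the threshold (log2 fold change 0.75, SE 0.12, edgeR adjusted p = 0.0693), and 113 genes had an unadjusted p under 0.05.

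Other macrophage programs were less even among mice. Lgals3, the galectin of activated and lipid-laden macrophages, was at 5.05, 8.70 and 2.32 UMIs per 10000 in the macrophage hexagons of A1, A2 and A3, against 2.55, 3.09 and 4.24 in the others, so that A3 went the other way. Its log2 fold change was 0.83 (SE 0.28, edgeR adjusted p = 0.165, and 0.042 with library size scaling), and without A3 it passed at an adjusted p of 0.0376. Apoc1, an apolipoprotein of lipoprotein particles, was at 2.64, 4.02 and 2.32 in macrophage hexagons and at 5.60, 5.42 and 4.65 in the others (log2 fold change -0.90, SE 0.32, edgeR adjusted p = 0.165, and 0.042 with library size scaling). Transcripts counted as Apoe were found although the mice are labelled Apoe-/-, with 39.8, 50.2 and 57.2 in macrophage hexagons, 51.5, 55.6 and 50.3 in the others and 64.4 between sections. The list of lipid-associated macrophage genes had a median log2 fold change of -0.21 over its 7 tested genes. Among resident macrophage genes only Selenop was tested, at 25.7, 21.4 and 17.02 in macrophage hexagons and 21.6, 23.3 and 18.8 in the others.

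Inflammatory transcripts were scarce, with 124 UMIs of the 19 listed chemokines and cytokines in the 650 hexagons. Il1b, Tnf, Il6, Il10, Cxcl2 and Ccl7 had no UMI there, and the other 13 genes were detected. The summed level of the list was 16.3, 19.4 and 11.6 in the macrophage hexagons of A1, A2 and A3. In the hexagons without the rule genes it was 11.3, 12.6 and 13.5, so that A3 went the other way. The 1 chemokine tested, Cxcl12, which stromal cells make to attract and retain leukocytes, was at 7.03, 9.37 and 7.74 in the macrophage hexagons of A1, A2 and A3 and at 4.78, 5.07 and 6.70 in the others (log2 fold change 0.59, SE 0.25, edgeR adjusted p = 0.362). MHC class I was measured through B2m, the light chain of class I molecules, at 18.2, 14.7 and 12.4 in macrophage hexagons and 13.04, 12.4 and 11.8 in the others (log2 fold change 0.22, SE 0.25, edgeR adjusted p = 0.984). The lists of MHC class I, iron and heme, other complement, metalloproteinase and cell cycle genes had 4, 2, 3, 1 and 1 tested genes, 0 of which passed, with median log2 fold changes between 0.08 and 0.33. The hemoglobin, B and plasma cell and liver lists had 2, 2 and 9 tested genes, 0 of which passed, with medians of -0.33, -0.41 and -0.12.

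**Figure D3:**
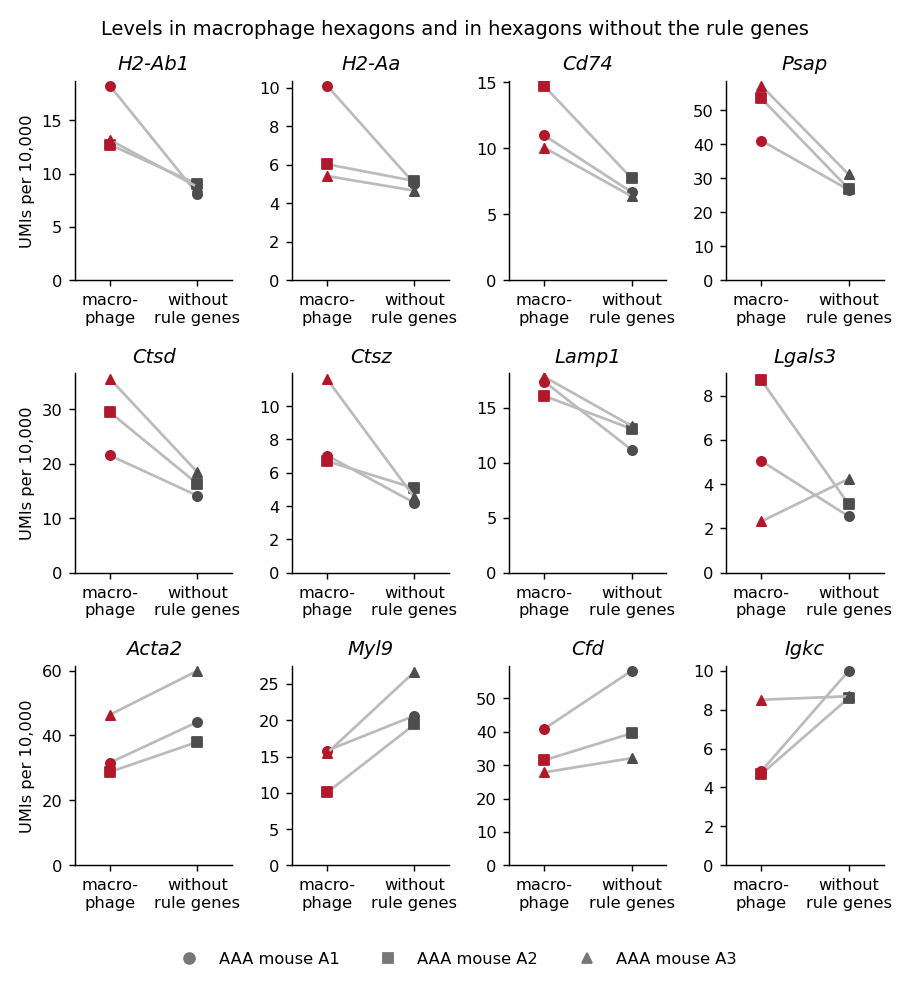
Levels of 12 genes in UMIs per 10000 UMIs outside the rule, in macrophage hexagons (red) and in hexagons without the rule genes (grey) of the 3 AAA mice, with 1 line per mouse. H2-Ab1, H2-Aa, Cd74, Psap, Ctsd, Ctsz and Lamp1 are higher in macrophage hexagons in all 3 mice, Lgals3 in 2 of 3, and Acta2, Myl9, Cfd and Igkc are lower in all 3.

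Genes of other cell types were also measured in these hexagons. Acta2, the smooth muscle actin, was at 31.6, 28.8 and 46.4 UMIs per 10000 in the macrophage hexagons of A1, A2 and A3, against 44.2, 38.0 and 59.9 in the others (log2 fold change -0.62, SE 0.28, edgeR adjusted p = 0.505, and 0.0392 with library size scaling). It was lower in each of the 3 mice, but the ranges overlapped. Myl9, a myosin light chain, was at 15.8, 10.0 and 15.5 against 20.6, 19.4 and 26.7 in the hexagons without the rule genes (edgeR adjusted p = 0.242, and 0.0393 with library size scaling). Tagln, an actin-binding protein, was at 17.4, 13.4 and 20.9 against 20.3, 15.99 and 29.96. Of the 21 contractile genes 10 were tested and 6 were lower in all 3 AAA mice, where 15.1% of all tested genes were. Over the list, contractile RNA was at 142 ± 25.8 UMIs per 10000 in macrophage hexagons and 175 ± 31.6 in the others (SD, n = 3 AAA mice each), with 229 between sections. The part of free RNA in these levels was not tested.

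None of the 5 tested adipocyte genes passed, and 4 of them were lower in all 3 AAA mice, against 15.1% of all tested genes, with a median log2 fold change of -0.36. Cfd, the adipocyte serine protease adipsin, was at 40.9, 31.5 and 27.8 UMIs per 10000 in macrophage hexagons and 58.2, 39.5 and 32.1 in the others (log2 fold change -0.45, SE 0.26, edgeR adjusted p = 0.89, and 0.042 with library size scaling), and Fabp4 and Scd1, for fatty acid binding and desaturation, had log2 fold changes of -0.33 and -0.36 and did not pass with library size scaling either (edgeR adjusted p = 0.663 and 0.36). Igkc, the kappa light chain of antibodies, was at 4.83, 4.69 and 8.51 in macrophage hexagons and 9.99, 8.60 and 8.69 in the others (log2 fold change -0.78, SE 0.30, edgeR adjusted p = 0.235, and 0.042 with library size scaling). Of the 16 genes called with library size scaling, Ctsz (given above), Col4a1, Col18a1, Cpe and Sh3bgrl3 are outside the naming rule. They were picked after their values were seen. Col4a1 and Col18a1, chains of basement membrane collagens, had log2 fold changes of -1.03 and -0.98, Cpe, a carboxypeptidase of peptide processing, one of -0.68, and Sh3bgrl3, a small thioredoxin-like protein, one of 0.71. Ttr, a liver transcript that marks RNA from outside the aorta, was at 20.0, 19.4 and 19.3 in macrophage hexagons and 24.96, 23.98 and 21.96 in the others.

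Fibroblast and matrix genes summed to 516 ± 67.1 UMIs per 10000 in macrophage hexagons and 500 ± 77.3 in the others (SD, n = 3 AAA mice each). Between sections their level was 405. Of 30 fibroblast and matrix genes 18 were tested, with a median log2 fold change of -0.05 and 1 gene higher and 1 lower in all 3 AAA mice. Yet 46.1%, 38.7% and 33.3% of the macrophage hexagons in A1, A2 and A3 held 2 or more UMIs of Col1a1, Col1a2, Col3a1 and Dcn, against 28.9%, 21.5% and 29.0% of the shallower hexagons without the rule genes. No gene of the endothelial, T and NK cell, neutrophil or dendritic cell lists was frequent enough to test. Endothelial genes summed to 11.5 ± 2.79 UMIs per 10000 in macrophage hexagons and 14.03 ± 1.84 in the others (SD, n = 3 AAA mice each). T and NK cell genes had 18 UMIs in all 650 hexagons, neutrophil genes 8 and dendritic cell genes 8, and Cd3d, Cd4, Ly6g, Xcr1 and Clec9a were at 0 UMIs.

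Another comparison set AAA against control within macrophage hexagons. Control macrophage hexagons held 1923, 142 and 373 UMIs outside the rule in C1, C2 and C3, against 45511, 14940 and 12927 in A1, A2 and A3, so only 58 genes could be tested. None passed (0% of 58 genes either way), 7 had an unadjusted p under 0.05, and DESeq2 called 1 gene higher, Mgp, an inhibitor of calcification (adjusted p = 0.00383). Acta2 had 144, 43 and 60 UMIs in A1, A2 and A3, which is 31.6, 28.8 and 46.4 per 10000, and 13, 1 and 6 UMIs in C1, C2 and C3, which is 67.6, 70.4 and 161 per 10000. The edgeR adjusted p of Acta2 was 0.345. Psap had 187, 80 and 74 UMIs in A1, A2 and A3 and 4, 0 and 0 in C1, C2 and C3 (edgeR adjusted p = 0.385). The calls changed with the few control hexagons, since edgeR called 3 genes lower without C2 (Hspb1, Rras and Pnpla2) and 4 higher without C2 and C3 (Col1a1, Rps24, Selenop and Fth1), all named after their values were seen.

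The last gene comparison set the macrophage hexagons without Gpnmb against those with Gpnmb. Control mice had no hexagon with 2 or more rule UMIs and Gpnmb, so it rests on the AAA mice, with 42, 40 and 24 such hexagons in A1, A2 and A3. Of 110 genes tested with edgeR, 6 were lower in the hexagons without Gpnmb (5.45%) and 0 higher (0%), and 15 had an unadjusted p under 0.05. The 6 genes were Psap, Ctsd, Ctsl, Cd5l, Ftl1 and Mfge8. A gene was tested when it reached 10.2 UMIs per 10000 in at least 3 of the 6 sums, and with no such filter edgeR called 29 genes higher and 0 lower of 11828, with a median log2 fold change of 1.28 over all genes. Psap and Ctsd reached that level in all 6 sums. Ctsl and Mfge8 reached it in 0 sums without Gpnmb, and Cd5l and Ftl1 in 1, but all 4 in the 3 with Gpnmb, so that they were tested through the group in which they were high and their values below are a description. Among the 43 genes at that level in all 6 sums, a setting added after seeing the data, edgeR called Psap, Ctsd and Fth1 lower (log2 fold changes -1.10, -1.31 and -0.91, adjusted p = 2.42e-06, 1.67e-05 and 0.00731) and 2 genes higher, Alb and Cst3. Alb, on the list of liver transcripts, was higher without Gpnmb in 3 of 3 AAA mice. Cst3 was higher in 2 of 3, and in A2 it was at 44.8 without Gpnmb and 50.6 with Gpnmb. Hexagons with Gpnmb also carried more rule UMIs, at 3.05, 3.53 and 2.92 per hexagon, against 2.58, 2.41 and 2.48 in those without Gpnmb, and their part in these differences was not tested beyond the settings given below.

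Psap fell to 41.1, 53.5 and 57.2 UMIs per 10000 in the hexagons without Gpnmb of A1, A2 and A3, against 90.2, 136 and 106 in those with Gpnmb (log2 fold change -1.20, SE 0.15, edgeR adjusted p = 0.00141). Psap was lower without Gpnmb in all 3 mice, as were 21.8% of the 110 tested genes. Its level thus took a middle place, above the hexagons without the rule genes and below those with Gpnmb. Ctsd was at 21.5, 29.5 and 35.6 in hexagons without Gpnmb and 51.1, 48.3 and 141 in those with Gpnmb (log2 fold change -1.43, SE 0.31, edgeR adjusted p = 0.0217), again lower in all 3 mice. Ctsl, the cysteine protease cathepsin L, was at 5.71, 10.0 and 8.51 without Gpnmb and 12.03, 75.8 and 19.6 with Gpnmb (log2 fold change -2.03, SE 0.36), with A2 far above the other mice. The Ctsl level without Gpnmb was near the 5.39, 7.91 and 6.36 of hexagons without the rule genes.

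Cd5l, a secreted protein of tissue macrophages that is tied to lipid handling and survival, was at 1.76, 10.7 and 3.09 UMIs per 10000 in hexagons without Gpnmb and 12.03, 34.5 and 19.6 in those with Gpnmb (log2 fold change -2.15, SE 0.35). These are 8, 16 and 4 UMIs without Gpnmb and 8, 15 and 5 with Gpnmb, and the level between sections was 3.01. Ftl1, the ferritin light chain that stores iron, was at 5.05, 10.7 and 6.19 without Gpnmb and 13.5, 29.9 and 15.7 with Gpnmb (log2 fold change -1.45, SE 0.28). Mfge8, which bridges apoptotic cells to phagocytes, was at 5.27, 8.03 and 6.96 without Gpnmb and 12.03, 22.98 and 15.7 with Gpnmb (log2 fold change -1.34, SE 0.29). For these 3 genes each mouse had the lower level in the hexagons without Gpnmb. So did 21.8% of all genes tested.

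Of the 6 genes, Ctsd and Ctsl carry the letters CACGTG in the 300 bases around their start (250 before and 50 after). This palindrome is the core of the E-box that the lysosomal regulator TFEB can bind. It reads the same on both strands, of which both were searched, and is present in 7.15% of the 32851 promoters of the RefSeq table (GRCm38.p6). The promoters in that table of Psap, Cd5l, Ftl1 and Mfge8 do not hold it. Both sequences are shown 5′ to 3′ on the strand of the gene, with CACGTG in capitals, for Ctsd at chr7:142387778-142388077 (minus strand, 2 matches) and Ctsl at chr13:64370471-64370770 (minus strand, 1 match).
Ctsd: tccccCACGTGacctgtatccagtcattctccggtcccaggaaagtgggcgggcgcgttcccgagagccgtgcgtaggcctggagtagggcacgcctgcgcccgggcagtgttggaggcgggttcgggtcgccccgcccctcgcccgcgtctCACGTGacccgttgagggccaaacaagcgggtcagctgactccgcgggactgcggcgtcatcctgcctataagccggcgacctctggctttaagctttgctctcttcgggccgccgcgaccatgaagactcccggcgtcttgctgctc
Ctsl: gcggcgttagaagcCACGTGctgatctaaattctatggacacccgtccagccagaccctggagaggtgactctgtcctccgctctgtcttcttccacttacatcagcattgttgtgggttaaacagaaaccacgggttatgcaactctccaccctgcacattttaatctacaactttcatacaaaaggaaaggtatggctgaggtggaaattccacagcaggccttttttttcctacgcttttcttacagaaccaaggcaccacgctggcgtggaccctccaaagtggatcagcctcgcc

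Other named genes did not pass among the 110. Fth1, the ferritin heavy chain, had a log2 fold change of -1.01 (SE 0.31, edgeR adjusted p = 0.129), and Selenop, a selenium carrier that resident macrophages express, one of -0.67 (SE 0.30, edgeR adjusted p = 0.345). Both were lower in all 3 mice. Col3a1, the type III collagen chain, pointed the other way (log2 fold change 0.44, SE 0.20, edgeR adjusted p = 0.346). So did H2-Ab1, at 18.2, 12.7 and 13.2 UMIs per 10000 without Gpnmb and 12.03, 6.89 and 3.92 with Gpnmb (log2 fold change 0.77, SE 0.35). The levels with Gpnmb are 8, 3 and 1 UMIs. H2-Ab1 reached 10.2 UMIs per 10000 in 3 sums without Gpnmb and 1 with Gpnmb. It was thus tested through the group in which it was high, and its values are a description. The summed class II level was 39.8 ± 5.10 in hexagons without Gpnmb and 28.7 ± 14.7 in those with Gpnmb, and the lysosomal level 252 ± 20.7 and 408 ± 60.2 (SD, n = 3 AAA mice each). By mouse, class II was at 45.7, 37.5 and 36.4 without Gpnmb in A1, A2 and A3 and 37.6, 36.8 and 11.8 with Gpnmb. The class II levels with Gpnmb rest on 25, 16 and 3 UMIs, and A2 was nearly equal in both groups.

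These 6 calls, of which those of Ctsl, Cd5l, Ftl1 and Mfge8 are a description, were sensitive to 1 mouse. Without A2 none of 119 genes passed in edgeR (lowest adjusted p = 0.11, with 20 genes at an unadjusted p under 0.05), although all 6 kept their direction. Their log2 fold changes without A2 were -0.98 for Psap, -1.48 for Ctsd, -2.62 for Cd5l, -1.31 for Ftl1, -1.10 for Mfge8 and -1.04 for Ctsl, whose value was -2.03 with A2. Of the 6, edgeR called Psap, Cd5l and Ctsl without A3 and Psap, Cd5l, Ctsl and Ctsd without A1, and DESeq2 called Psap, Cd5l and Ctsd. Among hexagons of 50 to 99 genes, 29 genes could be tested and Psap passed alone.

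**Figure D4:**
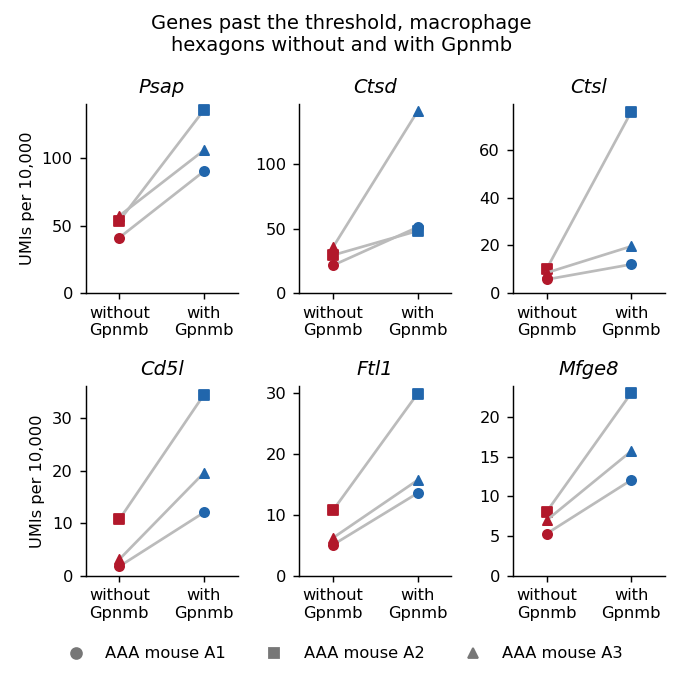
Levels, in UMIs per 10000 UMIs outside the rule, of the 6 genes past the threshold in macrophage hexagons without Gpnmb (red) and with Gpnmb (blue), with 1 line per AAA mouse. All 18 lines run from a lower level without Gpnmb to a higher level with Gpnmb, but the genes were chosen by this same comparison. Ctsl, Cd5l, Ftl1 and Mfge8 were tested through the hexagons with Gpnmb and are shown as a description.

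Positions were not used by the rule. The share of hexagons with another macrophage hexagon within 45 μm was 66.7%, 59.9% and 45.6% for the macrophage hexagons of A1, A2 and A3, against 42.7%, 46.0% and 34.4% for the hexagons without the rule genes. It was higher in 3 of 3 AAA mice, by 16.4 ± 6.74 percentage points (SD, n = 3, exact two-sided sign-flip test, p = 0.25, the smallest that 3 mice allow, 0.417 adjusted over 5 kinds of neighbour). Hexagons with 1 rule UMI lay between, at 51.6%, 50.8% and 42.5%. Macrophage hexagons also had more kept hexagons around them, with a median of 13 against 11 in A1. Within hexagons of 50 to 99 genes the shares were 38.0% ± 4.26 for macrophage hexagons and 27.6% ± 2.14 for the others (SD, n = 3), higher in 3 of 3 mice.

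A hexagon with Gpnmb was found within 45 μm of 42.3%, 49.6% and 42.2% of the macrophage hexagons in A1, A2 and A3 and of 34.1%, 38.9% and 31.3% of the hexagons without the rule genes (difference 9.93 ± 1.46 percentage points, SD, n = 3, exact sign-flip test, p = 0.25). A contractile neighbour (2 or more UMIs of the 4 contractile genes above) was found for 80.6%, 75.2% and 68.0% of macrophage hexagons and 72.1%, 63.2% and 68.7% of the others, which is higher in 2 of 3 mice. A collagen neighbour was found for 94.8%, 77.4% and 78.9% of macrophage hexagons and 84.5%, 75.04% and 81.0% of the others, again in 2 of 3. Neighbours with hemoglobin, a sign of blood, stood beside 14.2%, 20.4% and 4.08% of macrophage hexagons and 10.0%, 10.5% and 4.00% of the others. None of these 5 differences could reach a p of 0.05 with 3 mice. Over all 6 mice, macrophage and Gpnmb neighbours were each more frequent in 4 of 6 (exact sign-flip test, p = 0.125 and 0.5, adjusted over 5 kinds 0.625 and 0.833), and for Gpnmb the controls differed by -14.2, -11.9 and 31.9 points. With whole-gene UMIs all 5 kinds were more frequent in 3 of 3 AAA mice, contractile and collagen neighbours by 16.9 and 14.8 points. Contractile, collagen and hemoglobin neighbours were then more frequent in 6 of 6 mice (exact sign-flip test, p = 0.0521 each after adjustment over the 5 kinds). Gpnmb and macrophage neighbours were so in 5 of 6. Macrophage hexagons again had more kept hexagons around them, with a median of 18 against 15 in A1. Among hexagons of 50 to 99 genes contractile and collagen neighbours differed by 2.54 ± 9.32 and -1.53 ± 9.71 points (SD, n = 3).

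**Figure D5:**
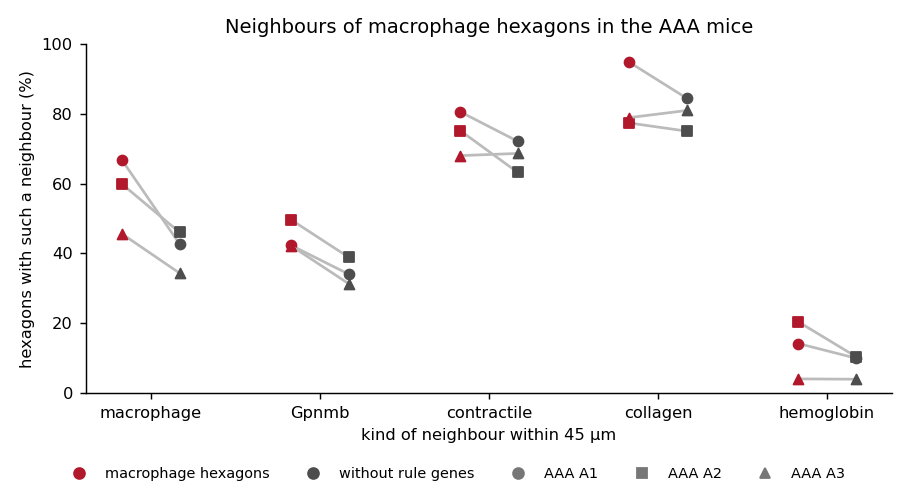
Percent of hexagons in the 3 AAA mice with a neighbour of the named kind within 45 μm, for macrophage hexagons (red) and hexagons without the rule genes (grey), with 1 line per mouse. Macrophage and Gpnmb neighbours are more frequent around macrophage hexagons in all 3 mice, contractile and collagen neighbours in 2 of 3. With whole-gene UMIs every kind is more frequent in 3 of 3.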

How the data were processed

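Per the labels and the paper, the authors captured RNA of 20 sections on 1 array, sequenced 2 aorta libraries, and aligned reads to mm10 with STARsolo 2.7.5c. They deposited 1 matrix of UMI counts, not normalized, over exons and over whole genes for 32285 genes and 9837644 barcodes (763 without a position). Exonic counts were used here. As in the paper, genes starting with mt or Gm were dropped (8551 genes), but hexagons of 50 or more genes were kept in place of 75.

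Lane 2 barcodes were scaled at 26.6 position units per μm, and the outline edges fitted with a residual SD of 204 μm. On the published axis, section 1 of C3 ended at 96859 μm and section 1 of A3 began at 96941 μm. The SD is thus wider than some gaps between AAA and control sections. The replicate is the mouse. Kept hexagons held 180027 to 524381 UMIs in AAA mice and 29852 to 58939 in control mice. UMIs summed per mouse were tested in R 4.3.3 by the quasi-likelihood test of edgeR 4.0.16, after TMM scaling and filterByExpr, with p-values adjusted by Benjamini-Hochberg (threshold 0.05), which was tested on simulated data, and with DESeq2 1.42.0. Shares and neighbours were tested by exact permutation or sign flips over mice, so p-values measure the spread between these mice. The members and the 21 gene lists were chosen with earlier results of these data known. Named genes were those past the threshold and alike in the AAA mice (up to 12 or 8 each way), up to 4 tested genes of highest count per list, the rule genes, Gpnmb, Apoe, and macrophage genes named by the study. Promoters came from RefSeq, with 14 of 18 genes matched. Lane 1 and 2600 hexagons of lane 2 beyond the outer sections were not used here.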

Additional observations from a re-analysis of the deposited data

Results flagged for a closer look

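Hemoglobin near macrophage hexagons pointed in opposite directions in the conditions with exonic UMIs, but not in every setting. The share of macrophage hexagons with a hemoglobin neighbour within 45 μm, minus that of the hexagons without the rule genes, was 4.17, 9.95 and 0.0858 percentage points in A1, A2 and A3, against -3.58, -19.7 and -5.12 in C1, C2 and C3. Every AAA mouse was above 0 and every control mouse below it, and the mean difference was 14.2 percentage points higher in AAA mice. The difference between the conditions was not tested, and the control values rest on 15, 2 and 4 macrophage hexagons. With whole-gene UMIs the values were 2.15, 0.987 and 1.43 in A1, A2 and A3 and 1.59, 23.0002 and 3.12 in C1, C2 and C3, all above 0. Among hexagons of 50 to 99 genes they were -0.157, 4.29 and -1.05 in A1, A2 and A3 and 11.1, -14.8 and -2.52 in C1, C2 and C3. At 75 or more genes A3 was at -0.14.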

How the results depend on the processing

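The higher share of macrophage hexagons in AAA mice kept its direction in every setting tried, with differences of 4.57 to 5.48 percentage points when 1 mouse was left out. For macrophage hexagons over hexagons without the rule genes, edgeR called 8 genes higher and 8 lower with library size scaling, 3 higher with the reference within 45 μm, 1 higher at 75 or more genes, 1 higher without C2 and C3, and 0 to 1 higher when 1 mouse was left out. It called 0 with whole-gene UMIs, 3 or more rule UMIs, 50 to 99 genes, no filter or the AAA mice alone under either scaling (172, 11, 11, 2021, 113 and 36 genes at an unadjusted p under 0.05). For AAA over control, 77 genes were higher without the low-count filter, 1 with DESeq2 and 4 without C2 and C3, and 0 to 3 were lower when 1 mouse was left out (3 without C2). For hexagons without Gpnmb over those with Gpnmb, 1 higher and 2 lower passed at 75 or more genes, 2 lower at 3 or more rule UMIs, 1 lower at 50 to 99 genes, 1 higher and 6 lower with library size scaling, 0 higher and 6 lower with whole-gene UMIs, 2 higher and 3 lower among genes at the filter level in all 6 sums, 29 higher and 0 lower without the filter, 3 lower with DESeq2, and 0 to 3 higher and 0 to 6 lower when 1 mouse was left out.

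With no filter on low counts, all genes had a median of -0.95 (log2) in macrophage hexagons over hexagons without the rule genes, and these genes changed sign there: H2-Ab1 (-0.46), H2-Aa (-0.47), Cd74 (-0.54), Psap (-1.02), Ctsd (-0.71), Ctsz (-0.30), Lamp1 (-1.04), Lgals3 (-0.19), Cxcl12 (-0.31), B2m (-1.15) and Sh3bgrl3 (-0.31). Psap, Lamp1 and B2m were then below that median, and the others named here above it. In the comparison with Gpnmb hexagons the median became 1.28, and Fth1 (0.062) and Selenop (0.41) changed sign. Collagen neighbours changed sign at 50 to 99 genes (-1.53 percentage points). The cause of these changes was not tested. The fit with the embedding pair as a replicate block called 0 genes in AAA over control, as did the fit without it (4 and 7 genes at an unadjusted p under 0.05). Control macrophage hexagons held 142 to 1923 UMIs outside the rule genes, which limits every comparison that includes them, and the condition of each section rests on published outlines.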
